A study of Mus musculus with 24 samples.

Results

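Complement is a cascade of blood and tissue proteins, and 30 of its genes were followed here in the liver and the epididymal fat of GPR120-deficient and wild-type mice. They were listed by name, with earlier results of these data known, to cover the classical, lectin, alternative and terminal pathways, the regulators and the receptors. Of the 30, 28 had at least 1 probe set that the platform annotation assigned to that gene alone, out of 18193 genes with such a probe set. C3 and C4b had none and were not analysed here. The 28 comprised 5 genes of the classical pathway (C1qa, C1qb, C1qc, C1ra, C2), 4 of the lectin pathway (Mbl1, Mbl2, Masp1, Masp2) and 2 of the alternative pathway (Cfb, Cfp). A further 6 belonged to the terminal pathway (Hc, C6, C8a, C8b, C8g, C9), 7 were regulators (Cfi, C4bp, Cd55, Cd59a, Serping1, Clu, Vtn) and 4 were receptors (C3ar1, C5ar1, Cr2, Itgb2).

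GPR120, encoded by Ffar4, is a membrane receptor for long-chain fatty acids. The mice lacked it (KO) or carried it (WT), all on a mixed 129/Sv and C57BL/6 background, and were fed a normal diet (ND) or a high-fat diet (HFD). Total RNA was measured on 24 arrays in 8 groups of 3: each of 12 mice gave 1 array of epididymal adipose tissue and 1 of liver, and each genotype had 3 mice per diet. The age of the mice, the length of the diet and the allele that removed the receptor are not given in the sources used here. The mice are named by the numbers of the labels: WT on ND were 686, 687 and 690, KO on ND were 718, 719 and 720, WT on HFD were 546, 547 and 560, and KO on HFD were 427, 428 and 429. Values are given in that order of mice within each group.

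Complement is started in 3 ways. In the classical pathway, C1q, built from chains encoded by C1qa, C1qb and C1qc, recognises antibodies or altered surfaces and activates the proteases C1r and C1s, which cleave C4 and C2. In the lectin pathway, mannose-binding lectins recognise sugars and act through the proteases MASP-1 and MASP-2. In the alternative pathway, factor B supplies the protease of a convertase that properdin stabilises. All of them converge on C3 and C5, and the terminal proteins C5 (Hc in the mouse), C6, C7, C8 and C9 assemble the membrane attack complex. Hepatocytes make most of the circulating proteins, C1q comes mainly from macrophages and dendritic cells, and adipose tissue is a known source of the alternative pathway protease adipsin. The receptors C3aR and C5aR bind the anaphylatoxins released in the cascade, and CD18, encoded by Itgb2, pairs with CD11b or CD11c to form receptors for cleaved C3.

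The values are MAS5 signals, which have no unit, and an array's median signal lay between 13.4 and 25.7. A gene was tested in a tissue where the mean of its log2 signal reached that of the median probe set, which corresponded to a signal of 19.3 in fat and 12.95 in liver. Differences are in log2 with their standard errors from limma, each between 3 mice and 3 mice unless said otherwise, and p-values were adjusted by the Benjamini-Hochberg method over all genes tested. The tissue labels matched the defining markers: Alb was 9314 to 14141 in liver and 83.5 to 2435 in fat, and Adipoq was 3799.9 to 7424 in fat and 1.29 to 27.4 in liver. Ffar4 in fat was 23.1 to 30.5 in KO and 97.3 to 171 in WT on HFD, and 33.7 to 35.7 in KO and 58.3 to 73.7 in WT on ND. In liver, where Ffar4 was at 0.55 to 17.3 in WT, the KO signals of 13.5 to 36.8 were not lower. The log2 ratio of 3′ to 5′ Actb signals, a sign of RNA quality, was lower in KO than in WT on HFD, at 0.62 to 0.80 against 1.14 to 1.68 in fat and at 1.69 to 1.72 against 1.99 to 2.09 in liver. It was also higher on HFD in liver and in WT fat, but overlapped between diets in KO fat: on ND it was 1.11 to 1.25 in WT and 1.24 to 1.34 in KO liver, and 0.88 to 0.92 in WT and 0.72 to 0.85 in KO fat. Its part in the diet comparisons was not tested. Fat of ND mice carried epididymis and testis transcripts (summed signal of 11 genes 37330 to 64160) that HFD fat held at 30.7 to 303, except in KO mouse 427 at 3693. The fat of WT HFD mouse 547 also held skeletal muscle transcripts, with a summed signal of 4 genes of 3775 against at most 942 elsewhere.

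In WT mice on HFD the complement genes divided between the tissues. Many circulating components were far higher in liver, while C1q, the receptors and the membrane-bound regulators were higher in fat. Of 27 members tested, 25 passed the test, 17 with more signal in liver and 8 with more in fat, beside 64.2% of the 12597 genes tested. Of these 27, 8 reached the filter in liver alone and C5ar1 in fat alone, so that their direction was largely set by the filter. Among the 18 that reached it in both tissues, 16 passed the test, 9 with more signal in liver and 7 with more in fat. C4bp is among the 9 but reached the fat filter only through ND fat. In the WT HFD fat compared here it read 1.36 to 8.74, so its direction was largely set as well. The median log2 difference of fat minus liver was -3.62 over the members and 0.23 over all genes. Cr2, the receptor CD21 of B cells and follicular dendritic cells, reached the filter in neither tissue.

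**Figure D1:**
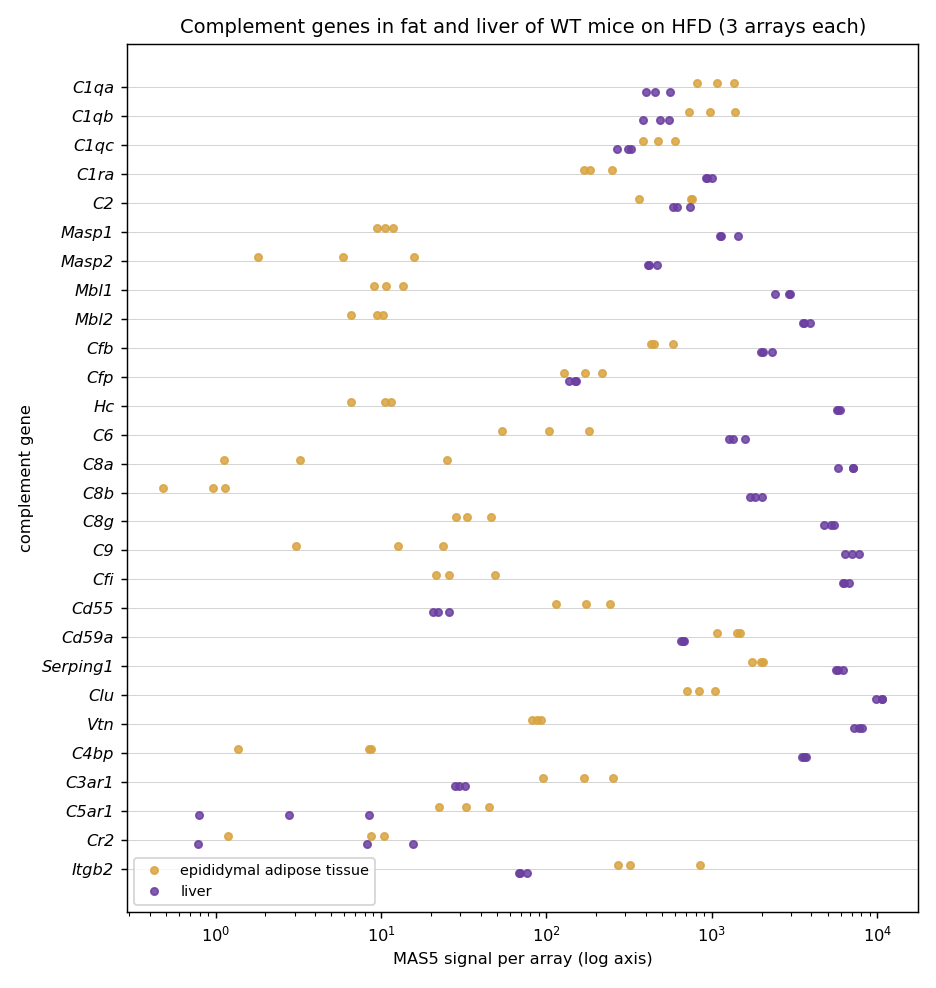
Signal of each of the 28 complement genes in the fat and liver arrays of the 3 WT mice on HFD, on a log axis, with 1 point per array and the genes ordered by role. The lectin pathway genes and C8a, C8b, C9 and Hc are near the low end of the axis in fat and far higher in liver, and C3ar1, C5ar1 and Itgb2 lie higher in fat.

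The terminal pathway genes differed widely between the tissues. Hc, which encodes C5, read 5931, 5740.2 and 5792 in liver and 6.58, 11.5 and 10.5 in fat of WT HFD mice, at least 302-fold higher in liver (adjusted p = 3.41e-14). C8a, the alpha chain of C8, read 7158, 7087 and 5816 in liver and 1.13, 24.9 and 3.22 in fat, at least 346-fold higher in liver. C9, which forms the pore, was at least 367-fold higher in liver, and C8b, the beta chain of C8, at least 95.4-fold. These bounds set the liver mean against the fat filter, because the mean fat signals lay below it. C8g, the gamma chain of C8, was measured in both tissues and was 146-fold higher in liver (log2 difference of fat minus liver -7.19 ± 0.20, adjusted p = 1.45e-16). C6 had the smallest gap of the 6, with 1584, 1347 and 1268 in liver and 179.7, 54.1 and 103 in fat (log2 difference -3.80 ± 0.34).

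All 4 lectin pathway genes were higher in liver. With the probe sets used for both tissues they reached the filter in liver alone, which largely set this direction. Mbl1 read 2409, 2956 and 2921 in liver and 9.10, 13.6 and 10.8 in fat, at least 143-fold higher in liver (adjusted p = 1.56e-12), and Mbl2 was at least 191-fold higher. The proteases Masp1 and Masp2 were at least 63.9-fold and 22.3-fold higher in liver. The Masp1 bound holds for its probe set alone. Another, used for Masp1 within fat, had mean signals of 340.5 over the liver arrays and 21.9 over the fat arrays. Over the alternatives the log2 difference of Masp1 ranged from -6.94 to -3.59, against -6.86 in the main fit. Of the alternative pathway, Cfb, encoding factor B, was 4.40-fold higher in liver, with 2049, 2324 and 1988 there and 582, 447 and 426 in fat. Cfp, encoding properdin, read 138, 149.8 and 151 in liver and 128, 216 and 169.9 in fat, and its groups overlapped (adjusted p = 0.492).

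The regulators split by whether their products circulate. Cfi (factor I, which cleaves C3b) was 213-fold higher in liver, and Vtn (vitronectin) 88.4-fold. C4bp (the C4b-binding protein) was at least 187-fold higher in liver, Clu (clusterin) 12.3-fold and Serping1 (the C1 inhibitor) 3.06-fold. The 2 membrane proteins went the other way. Cd55, the decay-accelerating factor, read 113, 241 and 174 in fat and 25.9, 22.0 and 20.6 in liver (log2 difference 2.89 ± 0.45, adjusted p = 1.17e-05). Cd59a, an inhibitor of the membrane attack complex, was 1.97-fold higher in fat.

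Among classical pathway genes, C1qa was 2.26-fold higher in fat (log2 difference 1.18 ± 0.20), C1qb 2.12-fold and C1qc 1.59-fold. C1ra, the protease activated by C1q, was 4.83-fold higher in liver, and C2 differed by -0.12 ± 0.26 (adjusted p = 0.715). Itgb2 was 5.88-fold and C3ar1 5.36-fold higher in fat, and C5ar1 at least 2.58-fold. The 11 macrophage markers, none of them a member, summed to 8490 to 14110 in fat and 3660 to 4591 in liver of these mice, and 9 of the 11 were higher in fat. Their part in the C1q and receptor differences was not tested. In whole tissue, fewer cells of a type and less RNA per cell cannot be told apart. Leaving out 1 array kept all 25 calls, but the folds of C8a, Masp2, C9, C4bp and C5ar1, which rest on signals below the filter, then moved by over 1.5 times. The log2 difference of C8a, -10.53 with all arrays, was -9.54 without mouse 546 and -11.77 without mouse 547. Likewise Masp2 was -5.48 without mouse 546 and -7.05 without mouse 547, against -6.29 with all arrays. C9, at -9.51, was -10.15 without 547 and -8.68 without 560, C4bp, at -9.60, was -8.71 without 560, and C5ar1, at 3.44, was 2.73 and 4.20 without the liver arrays of 547 and 560.

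Because of these levels, 20 of the 28 members could be tested within fat and 26 within liver. In fat, Masp1 and C5ar1 lay just inside the filter, at mean signals of 20.5 and 21.8, and C9 and Hc just outside, at 18.2 and 17.3. The other members below it in fat were Masp2 (1.80 to 15.9 over the 12 arrays), Mbl1 (1.84 to 17.3), Mbl2 (0.980 to 28.3), C8a (1.13 to 29.2), C8b (0.350 to 28.2) and Cr2 (1.19 to 22.8). In liver only C5ar1 (0.790 to 12.2) and Cr2 (0.380 to 15.5) lay below the filter, and C3ar1 was the lowest member inside it, at 26.7.

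The comparison of KO with WT fat on HFD asks what loss of GPR120 changed in the fat of mice on the HFD. C1q and the receptors C3ar1 and Itgb2 were higher in KO fat, and C2, the protease partner of C4, was lower. Of the 20 members tested, 8 passed the test, 7 higher and 1 lower, beside 22.5% of all 11613 genes tested (11.1% higher and 11.4% lower). The median log2 difference was 0.46 over the 20 members and -0.03 over all genes. All 5 classical pathway genes changed, as did 2 of 3 receptors tested and 1 of 7 regulators, while the single lectin gene, both alternative pathway genes and both terminal genes tested did not pass.

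**Figure D2:**
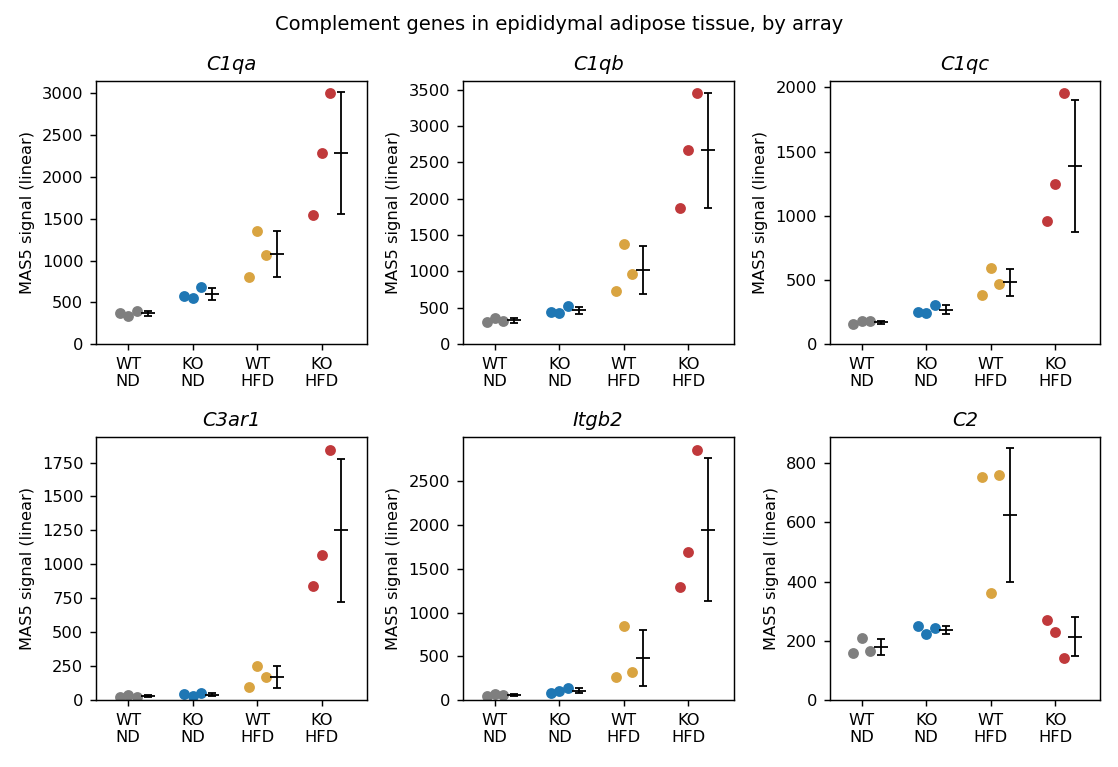
Signals of C1qa, C1qb, C1qc, C3ar1, Itgb2 and C2 in epididymal fat, with 1 point per mouse and the mean ± SD of the 3 mice of each group, on linear axes that start at 0. The first 5 genes are highest in KO mice on HFD, without overlap with the other groups, and C2 is highest in WT mice on HFD.

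The 3 C1q chain genes lie next to each other on chromosome 4 and all were higher in KO. C1qc read 959, 1251 and 1959 in KO and 384, 594 and 470.0 in WT fat on HFD. The groups did not overlap, and the KO mean was 2.80-fold higher (log2 difference 1.48 ± 0.23, adjusted p = 0.00181). C1qb read 1866, 2674 and 3454 in KO and 727, 1377 and 969.7 in WT. Every KO mouse again exceeded every WT mouse (log2 difference 1.38 ± 0.24, adjusted p = 0.00292), and its 2 other probe sets gave 1.94 and 1.13. C1qa read 1551, 2292 and 3010.2 in KO and 809, 1355 and 1071 in WT, a 2.09-fold difference (log2 difference 1.06 ± 0.23, adjusted p = 0.00847). Mouse 429 had the highest C1q signals of the KO group, and mouse 547 the highest of the WT group.

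The promoters of C1qb, C1qc and C3ar1 are shown because these genes, neighbours or not, were higher in the same KO mice. They come from RefSeq (build GRCm38.p6) and span 250 bases before to 50 bases after the gene's start, 5′ to 3′ on the gene's own strand, with motif matches in capitals. The RefSeq table used held 21 of the 30 members. C1qb lies on the minus strand at chr4:136886151-136886450, C1qc on the minus strand at chr4:136892865-136893164, and C3ar1, encoding the C3a receptor, on the minus strand at chr6:122856108-122856407.
C1qb: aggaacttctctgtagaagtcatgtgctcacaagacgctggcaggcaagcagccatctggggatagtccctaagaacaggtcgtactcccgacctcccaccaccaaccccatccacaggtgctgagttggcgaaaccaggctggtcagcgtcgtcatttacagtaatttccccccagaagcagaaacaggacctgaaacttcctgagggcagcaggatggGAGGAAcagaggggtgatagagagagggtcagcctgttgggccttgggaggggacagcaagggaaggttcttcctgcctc
C1qc: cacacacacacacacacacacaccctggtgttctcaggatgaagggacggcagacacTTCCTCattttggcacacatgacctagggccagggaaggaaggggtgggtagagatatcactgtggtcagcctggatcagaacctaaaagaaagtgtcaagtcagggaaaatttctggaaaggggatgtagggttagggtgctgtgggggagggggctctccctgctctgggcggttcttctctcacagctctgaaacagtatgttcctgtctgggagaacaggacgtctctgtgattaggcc
C3ar1: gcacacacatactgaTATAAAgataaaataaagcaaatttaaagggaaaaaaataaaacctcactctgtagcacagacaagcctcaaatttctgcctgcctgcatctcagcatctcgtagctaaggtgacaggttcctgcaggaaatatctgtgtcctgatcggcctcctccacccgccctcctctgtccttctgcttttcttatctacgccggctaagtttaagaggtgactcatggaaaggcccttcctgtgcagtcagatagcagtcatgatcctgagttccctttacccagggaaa
Both strands were searched for GAGGAA (the core of sites for PU.1, a myeloid transcription factor), TTGCNNAA (C/EBP), GTTAAT (an HNF1 half-site) and TATAAA (the TATA box), and none of the matches printed overlapped. The C1qb window held GAGGAA with its first base at -30 from the start, and the C1qc window held its reverse complement at -193. The C3ar1 window held TATAAA at -235. Of all 32851 promoter windows in the table, 28.3% held GAGGAA, 10.8% TTGCNNAA, 7.1% GTTAAT and 13.6% TATAAA. A match describes the letters of a window and is no evidence of binding.

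C1ra and C2, the other classical genes, differed in opposite directions. C1ra read 259, 320 and 292 in KO and 169, 183 and 251 in WT fat on HFD (log2 difference 0.55 ± 0.17, adjusted p = 0.0424). Its call was lost without mouse 428 (adjusted p = 0.113), 429 (0.106), 546 (0.145) or 547 (0.108), with quantile normalization (0.0804), without the filter (0.0598), with these 2 groups alone (0.0834), and without mice 427 and 547 (0.0833). A probe set shared by C1ra and C1rb was not tested. In fat on HFD it read 87.75 to 185 in KO and 93.1 to 255 in WT. In liver on HFD it read 420 to 935 in KO and 427 to 581 in WT. C2 read 269.7, 231 and 143 in KO and 753, 363 and 758 in WT fat on HFD. Every KO value was below every WT value, and the KO mean was 2.85-fold lower (log2 difference -1.51 ± 0.29, adjusted p = 0.00431). The 2 other probe sets of C2 gave -1.41 and -1.55. Cfb lies next to C2 on chromosome 17 and read 542, 826 and 424 in KO and 582, 447 and 426 in WT, with overlap (log2 difference 0.26 ± 0.25, adjusted p = 0.488).

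Among the receptors, C3ar1 had the largest difference of the 20 members. It read 841, 1068 and 1845 in KO and 95.5, 254 and 169 in WT fat on HFD. The lowest KO mouse exceeded the highest WT mouse, and the mean was 7.40-fold higher (log2 difference 2.89 ± 0.39, adjusted p = 0.000944). Its 2 other probe sets gave 2.56 and 2.67. Itgb2 read 1293, 1685 and 2855 in KO and 269, 847 and 322 in WT, a 4.39-fold difference without overlap (log2 difference 2.14 ± 0.41, adjusted p = 0.00413). C5ar1, the receptor of C5a, read 124, 84.2 and 81.3 in KO and 22.5, 45.02 and 32.6 in WT. These groups did not overlap either, but the difference of 1.56 ± 0.63 did not pass (adjusted p = 0.0993) except in a fit of these 2 groups alone (0.0177).

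Macrophage markers moved with these genes. The summed signal of the 11 markers was 21040 to 33210 in KO and 8490 to 14110 in WT fat on HFD, and 10 of the 11 were higher in KO with a median log2 difference of 2.05. The 6 stromal markers summed to 14410 to 20030 in KO and 11570 to 13370 in WT, with 4 of 6 higher. The 5 B cell markers summed to 918 to 1500 against 229 to 419, and the 6 neutrophil markers to 621 to 1477 against 173 to 379. Only 1 of the 5 and 1 of the 6 reached the fat filter, and both of these were higher in KO. The 5 endothelial markers were all lower in KO, at 762 to 1172 against 2488 to 2702. The 7 adipocyte markers summed to 17950 to 27090 in KO and 27490 to 29870 in WT, with 3 of 7 lower and a median log2 difference of -0.62. The part of these markers and of the Actb ratio in the differences of the complement genes was not tested.

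Of the regulators, only Cfi passed in fat on HFD. It read 118, 78.9 and 47.6 in KO and 49.1, 25.6 and 21.5 in WT, so that the groups overlapped (log2 difference 1.35 ± 0.35, adjusted p = 0.0175). The highest value was that of mouse 427, whose fat carried epididymal transcripts. The call was lost without mouse 547 (adjusted p = 0.0506) or 560 (0.0739), with these 2 groups alone (0.0698), and without both 427 and 547 (log2 difference 0.92, adjusted p = 0.0982). The part of the epididymal transcripts in the Cfi difference was not tested.

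Besides C5ar1 and Cfb, 10 members did not pass on HFD. Cfp read 194, 205 and 316 in KO and 128, 216 and 169.9 in WT (log2 difference 0.47 ± 0.23, adjusted p = 0.164) and passed only without mice 427 and 547 (0.0441). C6, which binds C5b to start the attack complex, differed by -0.37 ± 0.45 (adjusted p = 0.596), and C8g by 0.17 ± 0.27 (0.697). Serping1 differed by 0.23 ± 0.13 (0.243), Vtn by 0.45 ± 0.26 (0.245) and C4bp by 1.62 ± 0.76 (0.151). C4bp read 47.5, 8.96 and 6.93 in KO and 8.50, 8.74 and 1.36 in WT. Every C4bp value lay below the filter but that of mouse 427, whose fat carried epididymal transcripts. Cd55, Cd59a and Clu had differences of -0.14, -0.10 and -0.13, with adjusted p of at least 0.788. Masp1, near the filter, differed by -0.45 ± 0.42 (0.487).

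On the normal diet no complement gene passed in fat, and few genes did at all. Of the 20 members tested with limma, 0 passed at the adjusted threshold, beside 0.250% of all genes. An unadjusted p under 0.05 was found for 6 of the 20 and for 1617 of all 11613 genes. The median log2 difference was 0.42 over the members and 0.07 over all genes. Cd59a had the smallest adjusted p, with 435, 372 and 622 in KO and 251, 246 and 251 in WT (log2 difference 0.90 ± 0.21, adjusted p = 0.111). C1qa read 574, 552 and 681 in KO and 373, 342 and 399 in WT without overlap (log2 difference 0.69 ± 0.23, adjusted p = 0.222). Cfb and Cfp likewise did not overlap: Cfb read 147, 113 and 183 against 74.5, 94.4 and 89.7 (adjusted p = 0.211), and Cfp 109, 76.6 and 98.9 against 56.9, 60.4 and 53.5 (0.202). C3ar1, at 44.3, 29.8 and 54.6 against 28.6, 42.7 and 24.6, and Itgb2, at 87.9, 103 and 142 against 50.3, 72.2 and 56.4, had adjusted p of 0.716 and 0.365. The macrophage markers summed to 4510 to 5739 in KO and 2996 to 3730 in WT on ND, and 0 of 11 passed the test.

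The high-fat diet changed most complement genes in the fat of WT mice. C1q, C2, factor B, properdin, the receptors and the membrane regulators rose, and C4bp, Clu, Cfi and C8g fell. Of 20 members, 18 passed, 14 higher and 4 lower on HFD, beside 55.3% of all genes. The median log2 difference was 1.49 over the members and -0.03 over all genes. All 5 classical and both alternative pathway genes tested rose, as did C3ar1 and Itgb2. C5ar1 is among the 14 but reached the fat filter only through its HFD signals, so that a difference with diet was built into its being tested. The same holds for C4bp, among the 4, which reached the filter only through its ND signals.

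In the classical pathway, C1qb rose 3.02-fold, from 298, 364 and 325 to 727, 1377 and 969.7 (log2 difference 1.59 ± 0.24, adjusted p = 0.000265). C1qa rose 2.85-fold and C1qc 2.77-fold, with adjusted p of 0.000275 and 0.000340. C2 rose 3.33-fold, from 161, 210.4 and 166 to 753, 363 and 758 (log2 difference 1.74 ± 0.29, adjusted p = 0.000464). No ND value of these 4 genes reached an HFD value. C1ra rose by 0.52 ± 0.17 (adjusted p = 0.0235), a call lost without mouse 560 (0.0978), 686 (0.0740) or 690 (0.0726), with these 2 groups alone (0.0557), and without mice 686 and 690 (0.375).

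In the alternative pathway, Cfb rose 5.60-fold, from 74.5, 94.4 and 89.7 to 582, 447 and 426 (log2 difference 2.49 ± 0.25, adjusted p = 1.45e-05). Cfp rose 2.95-fold (adjusted p = 0.000198), while its second probe set gave 0.22. Among the receptors, Itgb2 rose 7.10-fold, from 50.3, 72.2 and 56.4 to 269, 847 and 322 (adjusted p = 0.000171), and C3ar1 5.14-fold (0.000437). C5ar1 read 8.91, 12.02 and 1.56 on ND, below the filter, and was at least 1.73-fold higher on HFD (adjusted p = 0.00547). Its log2 difference of 2.54 was 1.63 without mouse 690, and its second probe set, below the filter, gave -1.26. The macrophage markers summed to 2996 to 3730 on ND and 8490 to 14110 on HFD in WT fat, with 11 of 11 higher. The endothelial markers rose too, from sums of 426 to 631 on ND to 2488 to 2702 on HFD, with 5 of 5 higher and a median log2 difference of 2.20. Of the adipocyte markers 5 of 7 were higher (median 1.53). The part of these markers in the rises was not tested.

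Of the membrane regulators, Cd59a rose 5.51-fold, from 251, 246 and 251 to 1561, 1540.4 and 1073 (log2 difference 2.46 ± 0.21, adjusted p = 6.50e-06). Cd55 read 113, 241 and 174 on HFD and 156, 46.0 and 55.1 on ND. Its groups overlapped through mouse 686 (adjusted p = 0.0321), and the call was lost without mouse 547 (0.118), 560 (0.0751), 687 (0.120) or 690 (0.108), or with these 2 groups alone (0.0700). Serping1 rose by 0.56 ± 0.13 (adjusted p = 0.00445) and C6 by 1.64 ± 0.45 (0.00912). Masp1 (log2 difference 0.52 ± 0.42, adjusted p = 0.315) and Vtn (log2 difference 0.00 ± 0.26, adjusted p = 0.991) did not pass. Without mice 686 and 690 together the adjusted p of Serping1 and C6 were 0.161 and 0.211.

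The 4 genes that fell moved with the epididymis and testis transcripts of ND fat, which were 11 of 11 lower on HFD in WT (median log2 difference -9.76). C4bp read 3496, 4955 and 5399 on ND, beside 3895, 2617 and 4126 in the liver of the same mice, and 8.50, 8.74 and 1.36 on HFD. It was at least 239-fold lower on HFD (adjusted p = 3.09e-06), and its log2 difference of -9.93 was -9.04 without mouse 560. Clu fell 8.62-fold, from 5459, 7961 and 9022 to 1038, 710.0 and 830.2 (adjusted p = 5.95e-05). Cfi fell 5.35-fold, from 139, 175 and 171 to 49.1, 25.6 and 21.5 (0.000163), and C8g 2.97-fold, from 146, 83.0 and 94.5 to 28.2, 46.5 and 33.3 (0.000615). The part of the epididymal transcripts in these 4 falls was not tested. Hepatocyte markers were at 2220 to 4392 in summed signal in WT fat on ND and 219 to 1414 on HFD, with 10 of 10 lower.

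**Figure D3:**
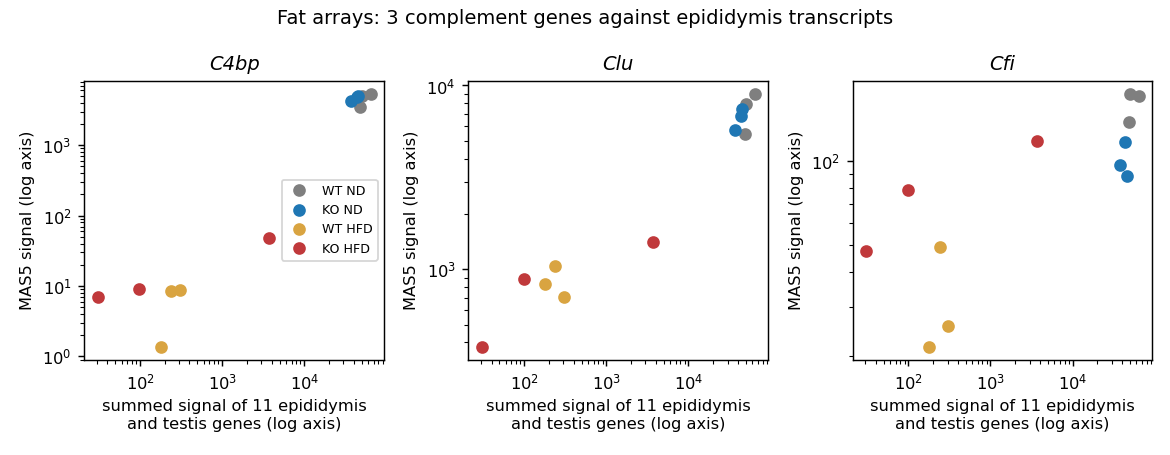
Signals of C4bp, Clu and Cfi in the 12 fat arrays against the summed signal of 11 epididymis and testis genes of the same array, on log axes and coloured by group. The 6 ND arrays lie together at summed signals of 37330 to 64160 with the highest C4bp and Clu, and KO HFD mouse 427, at 3693, lies between them and the other HFD arrays with C4bp at 47.5.

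In KO fat the diet changed 15 of 20 members, 12 higher and 3 lower, beside 48.7% of all genes, with medians of 1.20 over the members and -0.08 over all genes. C3ar1 rose 28.4-fold, from 44.3, 29.8 and 54.6 to 841, 1068 and 1845 (log2 difference 4.83 ± 0.39, adjusted p = 6.28e-06). Itgb2 rose 16.9-fold, from 87.9, 103 and 142 to 1293, 1685 and 2855 (log2 difference 4.08 ± 0.41, adjusted p = 2.15e-05). For both genes every KO mouse on HFD exceeded every KO mouse on ND. C5ar1, again below the filter on ND, was at least 4.99-fold higher on HFD (adjusted p = 0.00365). Of the C1q genes, C1qb rose 5.57-fold, C1qc 4.98-fold and C1qa 3.67-fold, with adjusted p of 2.09e-05, 2.34e-05 and 8.63e-05. C1ra rose 1.78-fold (0.00235). C2, in contrast, read 249, 223 and 242 on ND and 269.7, 231 and 143 on HFD (log2 difference -0.20 ± 0.29, adjusted p = 0.597).

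In the alternative pathway of KO fat, Cfb rose 3.97-fold (adjusted p = 8.42e-05) and Cfp 2.48-fold (0.000792), although the second probe set of Cfp gave -0.29. Cd59a rose 2.76-fold (0.000244). C4bp fell from 4907, 4973 and 4292 to 47.5, 8.96 and 6.93 (adjusted p = 1.21e-05). Its fitted log2 difference of -8.36 was -9.23 without mouse 427, and it rests on HFD signals below the filter in mice 428 and 429. Because C4bp reached the filter through its ND signals, a difference with diet was built into its being tested here too. Clu fell 8.53-fold (8.51e-05). C8g fell by 0.99 on the log2 scale (0.0113, and 0.0511 without mouse 718). Serping1 rose by 0.48 ± 0.13 (0.0125, and 0.0517 without mouse 428). C6 rose by 1.43 ± 0.45 (0.0209), a call lost without mouse 428 (0.0872) or 718 (0.0696). Cfi read 117, 88.5 and 96.7 on ND and 118, 78.9 and 47.6 on HFD with overlap (adjusted p = 0.373), and Cd55 differed by 1.09 ± 0.42 (0.0521). Cd55 passed without mouse 427 (0.0499), with quantile normalization (0.0357), with the mean of its probe sets (0.0106) and with these 2 groups alone (0.00961). Masp1 (0.446) and Vtn (0.806) did not pass. Macrophage markers were 11 of 11 higher on HFD in KO fat and epididymis and testis genes 8 of 11 lower, and their part in these differences was not tested.

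The remaining fat signals, over the 3 mice of each group, place these differences. Serping1 was at 1170.1 to 1541 in WT and 1529 to 1785 in KO on ND, and 1736 to 2037 in WT and 2007 to 2518 in KO on HFD. Vtn, which blocks the attack complex in plasma, was at 66.0 to 101 in WT and 87.6 to 173 in KO on ND, and 81.6 to 92.8 in WT and 90.3 to 144 in KO on HFD. Its 4 groups overlapped. Cd55 was at 46.0 to 156 in WT and 56.9 to 91.6 in KO on ND, and 113 to 241 in WT and 123 to 192 in KO on HFD, with 1 high WT mouse on ND. Clu, which also binds the attack complex, was at 5459 to 9022 in WT and 5697 to 7437 in KO on ND, and 710.0 to 1038 in WT and 378 to 1400.2 in KO on HFD. The Clu signals of the genotypes overlapped on both diets. C6 was at 21.7 to 48.6 in WT and 23.5 to 33.9 in KO on ND, and 54.1 to 179.7 in WT and 59.4 to 126 in KO on HFD, with wide groups. C8g was at 83.0 to 146 in WT and 68.1 to 98.6 in KO on ND, and 28.2 to 46.5 in WT and 32.5 to 50.6 in KO on HFD. Masp1 was at 14.03 to 26.1 in WT and 13.1 to 17.0 in KO on ND, and 19.1 to 41.0 in WT and 11.2 to 28.8 in KO on HFD, close to the filter in every group. C1ra was at 124 to 162 in WT and 144 to 185 in KO on ND, and 169 to 251 in WT and 259 to 320 in KO on HFD, and every HFD value exceeded every ND value of the same genotype.

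The interaction asks whether the diet effect differed between the genotypes, and it uses the same arrays as the 4 comparisons above. In fat, 3 of 20 members passed, beside 11.0% of all genes, with medians of 0.15 over the members and -0.06 over all genes. The WT HFD arrays, which had the highest C2, enter both the genotype comparison on HFD and the diet comparison in WT. C2 rose on HFD in WT and did not pass in KO, with a difference of diet effects, KO minus WT, of -1.94 ± 0.41 (adjusted p = 0.0160). Its 2 other probe sets gave -1.75 and -1.83. C3ar1 rose more in KO, by 2.47 ± 0.55 (0.0191), and its other probe sets gave 1.92 and 2.32. Cfi fell on HFD in WT and did not pass in KO, with an interaction of 2.03 ± 0.49 (0.0250) that was lost without mouse 719 (0.0608), 720 (0.0580) or 560 (0.0601).

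The C1q genes did not pass the interaction with all arrays. C1qb gave 0.88 ± 0.35 (adjusted p = 0.123) and passed without mouse 427 (0.0408) or 547 (0.0467). C1qc gave 0.85 ± 0.33 (0.122) and passed without 427 (0.0362), while C1qa gave 0.37 ± 0.33 (0.500). Itgb2 gave 1.25 ± 0.57 (0.182) and passed without 547 (0.0289). Cd59a, which rose on HFD in both genotypes, gave -0.997 ± 0.30 (0.0559) and passed without mouse 428 (0.0286), 719 (0.04997) or 560 (0.0426). Of the macrophage markers, 6 of 11 passed the interaction with higher values in KO. Endothelial markers were 5 of 5 lower (median -1.93) and adipocyte markers 3 of 7 lower (median -1.43), and the part of these markers in the interactions was not tested.

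In liver, KO mice on HFD had lower signals of 3 terminal pathway genes than WT mice. C6, C8b and Hc were lower, and no member passed as higher in the main fit. Of 26 members tested, 3 passed, beside 6.71% of all 11125 genes tested. The median log2 difference was -0.21 over the members and -0.03 over all genes. None of the 5 classical, 4 lectin, 2 alternative, 7 regulator or 2 receptor genes tested passed.

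**Figure D4:**
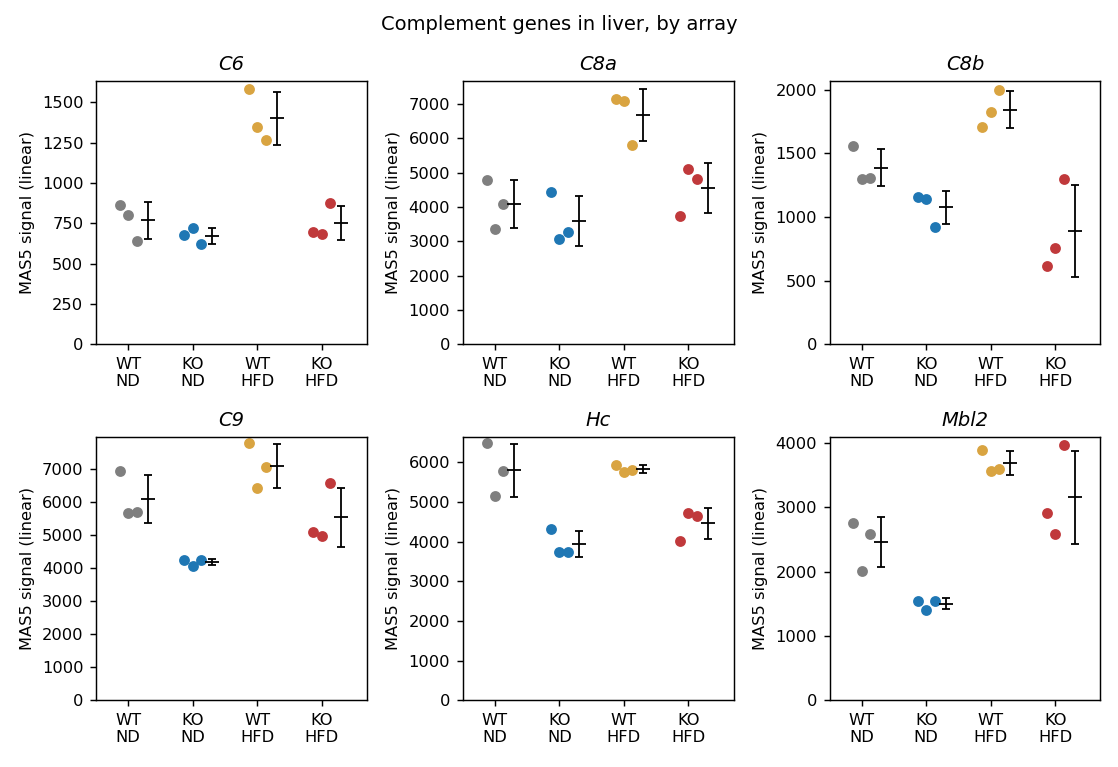
Signals of C6, C8a, C8b, C9, Hc and Mbl2 in liver, with 1 point per mouse and the mean ± SD of the 3 mice of each group, on linear axes that start at 0. C6 and C8a are highest in WT mice on HFD, C8b has its lowest 2 values in KO mice on HFD, and Hc is lower in KO than in WT on both diets.

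C6 read 695, 684 and 875 in KO and 1584, 1347 and 1268 in WT liver on HFD. Every KO mouse was below every WT mouse, and the mean was 1.87-fold lower (log2 difference -0.90 ± 0.14, adjusted p = 0.00232). C8b read 616, 758 and 1299 in KO and 1705, 1826 and 1996 in WT, 2.17-fold lower without overlap (log2 difference -1.12 ± 0.21, adjusted p = 0.00768). Mouse 429 was the highest of the KO group. Hc read 4018, 4729 and 4636 in KO and 5931, 5740.2 and 5792 in WT, also without overlap (log2 difference -0.39 ± 0.11, adjusted p = 0.0436). The Hc call was lost without mouse 427 (0.180), 428 (0.0614), 429 (0.0796), 546 (0.123), 547 (0.0976) or 560 (0.0782), with quantile normalization (0.107), without the filter (0.0970) and with the mean of all probe sets of each gene (0.0534).

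The promoters of these genes are shown as the liver members that were lower in KO on HFD. They follow RefSeq GRCm38.p6 and the same window, with motif matches in capitals. C6 lies on the plus strand at chr15:4726960-4727259, C8b on the plus strand at chr4:104766067-104766366, and Hc on the minus strand at chr2:35061363-35061662.
C6: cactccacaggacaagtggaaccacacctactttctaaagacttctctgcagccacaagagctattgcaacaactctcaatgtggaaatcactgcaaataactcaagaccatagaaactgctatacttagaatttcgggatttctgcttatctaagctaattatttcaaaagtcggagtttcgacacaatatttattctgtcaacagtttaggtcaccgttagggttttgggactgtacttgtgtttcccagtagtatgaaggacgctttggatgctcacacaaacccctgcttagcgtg
C8b: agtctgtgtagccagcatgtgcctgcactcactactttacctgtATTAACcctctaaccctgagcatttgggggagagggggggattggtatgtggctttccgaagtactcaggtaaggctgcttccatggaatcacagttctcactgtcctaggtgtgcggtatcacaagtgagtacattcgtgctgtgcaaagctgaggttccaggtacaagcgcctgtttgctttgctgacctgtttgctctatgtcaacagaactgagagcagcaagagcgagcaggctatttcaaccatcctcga
Hc: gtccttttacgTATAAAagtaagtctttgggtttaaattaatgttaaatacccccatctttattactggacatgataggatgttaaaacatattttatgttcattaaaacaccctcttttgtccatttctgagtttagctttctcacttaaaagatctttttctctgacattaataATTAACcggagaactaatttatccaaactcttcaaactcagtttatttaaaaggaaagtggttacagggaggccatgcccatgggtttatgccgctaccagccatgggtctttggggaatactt
The C8b window held ATTAAC, the reverse complement of the HNF1 half-site, with its first base at -206, and the Hc window held it at -74. The Hc window also held TATAAA at -239. The C6 window held none of the 4 motifs, which says only that these letters are not in those 300 bases.

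C8a lies next to C8b on chromosome 4 and read 3731, 5099.9 and 4828 in KO and 7158, 7087 and 5816 in WT, without overlap (log2 difference -0.56 ± 0.17, adjusted p = 0.0633). C9 lies on chromosome 15 like C6, with 8 protein-coding genes between them, and read 5078, 4952 and 6560.0 in KO and 7764, 6413 and 7056 in WT (log2 difference -0.36 ± 0.12, adjusted p = 0.0946). C9 passed without mouse 429 (0.0388). C8g differed by -0.16 ± 0.10 (0.388). The 10 hepatocyte markers summed to 82680 to 94800 in KO and 106300 to 119900 in WT on HFD, with 4 of 10 lower and a median log2 difference of -0.31. The part of the hepatocyte markers and of the Actb ratio in the terminal pathway differences was not tested.

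The other liver genes did not pass on HFD with all arrays. Itgb2 read 152, 175 and 98.2 in KO and 68.5, 75.7 and 69.7 in WT without overlap (log2 difference 0.95 ± 0.29, adjusted p = 0.0643), and passed without mouse 429 (0.0457) or in a fit of these 2 groups alone (0.0437). Cd59a read 814, 803 and 841 in KO and 649, 677 and 672 in WT (log2 difference 0.30 ± 0.09, adjusted p = 0.0646). Cd55 differed by 0.79 ± 0.27 (0.0978, and 0.0278 without mouse 429). With the mean of all probe sets of a gene, Cd59a (0.0379) and Masp2 (0.000417) passed as higher in KO. Vtn (0.0250) then passed as lower, and Hc did not pass.

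Serping1 differed by -0.30 ± 0.09 (adjusted p = 0.0710), Vtn by -0.32 ± 0.10 (0.0677) and Clu by -0.28 ± 0.10 (0.103) in liver on HFD. C1ra differed by -0.31 ± 0.10 (0.0925), Mbl1 by -0.31 ± 0.13 (0.157) and Masp2 by 0.36 ± 0.14 (0.137), where its second probe set gave 1.62. The C1q genes differed by 0.19 for C1qa, 0.34 for C1qb and 0.11 for C1qc, with adjusted p of at least 0.357. C3ar1 differed by 0.68 ± 0.35 (0.263), and Cfb by -0.30 ± 0.14 (0.218). Cfp, Mbl2, C2, Cfi, C4bp and Masp1 also did not pass, with adjusted p between 0.249 and 0.762. The macrophage markers summed to 5029 to 6178 in KO and 3660 to 4591 in WT liver on HFD, with 3 of 11 higher.

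On the normal diet, 3 of 26 members were lower in KO liver and none was higher in the main fit, beside 4.71% of all genes. With all probe sets of each gene averaged, Cd59a passed as higher (log2 difference 0.41, adjusted p = 0.0386). The medians were -0.20 over the members and -0.05 over all genes. Hc read 4322, 3743 and 3742 in KO and 6484, 5144 and 5769 in WT, 1.47-fold lower without overlap (log2 difference -0.56 ± 0.11, adjusted p = 0.0118), and the call was lost without mouse 720 (0.0556). Mbl2 read 1547, 1407 and 1550.4 in KO and 2759, 2014 and 2586 in WT, 1.62-fold lower (log2 difference -0.70 ± 0.15, adjusted p = 0.0205). Its call was lost without mouse 718 (0.0622), 719 (0.0623), 720 (0.0613), 686 (0.0530) or 690 (0.0551). C9 read 4253, 4065 and 4232 in KO and 6923, 5652 and 5688 in WT (log2 difference -0.54 ± 0.12, adjusted p = 0.0271). It was lost without mouse 718 (0.0742), 719 (0.0702), 720 (0.0825), 686 (0.0691) or 687 (0.0525), with quantile normalization (0.0650) and without the filter (0.0609). C6 read 674, 719.7 and 622 in KO and 862, 802 and 638 in WT on ND (log2 difference -0.18 ± 0.14, adjusted p = 0.481), and C8b 1159, 1144 and 924 and 1560.4, 1298 and 1309 (log2 difference -0.37 ± 0.21, adjusted p = 0.331). Hepatocyte markers summed to 96290 to 111700 in KO and 120800 to 127300 in WT on ND, with 1 of 10 lower, and their part in these differences was not tested.

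The high-fat diet changed 5 of 26 members in WT liver, 4 higher and 1 lower, beside 12.5% of all genes. The medians were 0.14 over the members and 0.00 over all genes. Masp2 fell 1.99-fold, from 835, 687 and 1086 on ND to 464, 416 and 411 on HFD (log2 difference -0.99 ± 0.14, adjusted p = 0.00106), and its second probe set gave -0.51. C6 rose 1.83-fold, from 862, 802 and 638 to 1584, 1347 and 1268 (log2 difference 0.87 ± 0.14, adjusted p = 0.00207). C8a rose 1.65-fold, from 4795, 3371 and 4097 to 7158, 7087 and 5816 (adjusted p = 0.0156), a call lost without mouse 546 (0.0607), 547 (0.0612) or 687 (0.0626). Mbl2 rose 1.51-fold (0.0213), a call lost without 546 (0.0751), 547 (0.0553) or 687 (0.0792). Cd59a rose by 0.34 ± 0.09 (0.0288), a call lost without mouse 546, 547, 560, 686 or 687, where the adjusted p lay between 0.0507 and 0.0931, and with 2 other settings. C1ra differed by 0.26 ± 0.10 (0.130, and 0.0464 without mouse 686). Vtn differed by -0.27 and did not pass with all arrays (0.0901). It passed as lower on HFD after quantile normalization (0.041) and when its probe sets were averaged (0.0108). The second probe set of Vtn gave -0.61.

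In KO liver the diet changed 8 of 26 members in the main fit, all higher on HFD, beside 16.5% of all genes. The medians were 0.23 over the members and 0.02 over all genes. Mbl2 rose 2.07-fold, from 1547, 1407 and 1550.4 to 2915, 2583 and 3957 (log2 difference 1.05 ± 0.15, adjusted p = 0.000746). Itgb2 rose 3.08-fold, from 34.0, 76.1 and 34.6 to 152, 175 and 98.2 (log2 difference 1.62 ± 0.29, adjusted p = 0.00267), without overlap. C1qc rose 1.47-fold, from 208, 226 and 226 to 356, 322 and 294 (log2 difference 0.56 ± 0.12, adjusted p = 0.00627), and C1qb 1.91-fold, from 275, 396 and 274 to 579.7, 688 and 517 (adjusted p = 0.00990). Macrophage markers were 8 of 11 higher and summed to 2599 to 3202 on ND and 5029 to 6178 on HFD in KO liver, while 1 of the 4 Kupffer cell markers was higher. Their part in these rises was not tested.

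The 4 remaining calls in KO liver depended on single arrays. C1qa rose by 0.48 ± 0.15 (adjusted p = 0.0389) and missed the threshold without any 1 of the 6 arrays (0.0627 to 0.121). C3ar1 rose by 1.29 ± 0.35 (0.0237) and missed it without mouse 427, 428, 718 or 720 (0.0733 to 0.0940). Its 2 other probe sets gave 0.41 and 1.41. Cd59a rose by 0.33 ± 0.09 (0.0267) and missed it without 427, 428, 429, 718 or 719 (0.0563 to 0.0895). C9 rose by 0.39 ± 0.12 (0.0441) and missed it without 427, 429, 718, 719 or 720 (0.0574 to 0.186). Masp2 read 753, 758 and 716 on ND and 536, 531 and 592 on HFD without overlap and did not pass (log2 difference -0.43 ± 0.14, adjusted p = 0.0510). Its second probe set gave 0.62, in the opposite direction, while the first passed with quantile normalization (0.0455) and with these 2 groups alone (0.0114). C8b (0.294) and Cd55 (0.119) did not pass, but did without mouse 429 (0.0159 and 0.0281). Vtn had a log2 difference of -0.28 and did not pass with all arrays (0.0671). It passed as lower on HFD without mouse 719 (0.0256), after quantile normalization (0.0352) and when its probe sets were averaged (0.00281). The second probe set of Vtn gave -0.81.

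In liver the interaction passed for 0 of 26 members with limma, beside 0.989% of all genes. An unadjusted p under 0.05 was found for 8 of the 26 and for 1723 of all 11125 genes. C6 had the smallest adjusted p, with a difference of diet effects, KO minus WT, of -0.72 ± 0.19 (0.105). C8b gave -0.75 ± 0.29 (0.240) and passed without mouse 429 (0.0426). Itgb2 gave 1.13 ± 0.41 (0.198) and passed without mouse 719 (0.0493). Masp2, which fell on HFD in WT, gave 0.56 ± 0.20 (0.184) and passed with the mean of its probe sets (0.0410).

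The liver signals of the other members, over the 3 mice of each group, were as follows for the early pathways. C1qa was at 374 to 534 in WT and 355 to 399.8 in KO on ND, and 401 to 560.1 in WT and 502 to 572 in KO on HFD. C1ra was at 738 to 914 in WT and 806 to 896 in KO on ND, and 928 to 1004 in WT and 706 to 825 in KO on HFD, and C2 at 434 to 654 in WT and 339 to 549 in KO on ND, and 578 to 739.9 in WT and 429 to 633 in KO on HFD. The C1q chain and both proteases were thus measured well above the filter in every liver. Mbl1 was at 2439 to 2547 in WT and 2039 to 2949 in KO on ND, and 2409 to 2956 in WT and 2097 to 2312 in KO on HFD, and Masp1 at 1094 to 1330.3 in WT and 1067 to 1171 in KO on ND, and 1125 to 1436 in WT and 1058 to 1307 in KO on HFD. Cfb was at 1493 to 2374 in WT and 1956 to 2051 in KO on ND, and 1988 to 2324 in WT and 1621 to 1829 in KO on HFD. Cfp, which leukocytes make, was at 117 to 208 in WT and 108 to 166 in KO on ND, and 138 to 151 in WT and 164 to 276 in KO on HFD.

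Among the liver regulators, Cfi was at 5086 to 6742 in WT and 5101 to 6168 in KO on ND, and 6183 to 6744 in WT and 5361 to 5894 in KO on HFD. C4bp was at 2617 to 4126 in WT and 3103 to 3509.8 in KO on ND, and 3498 to 3722 in WT and 3784 to 4437 in KO on HFD, in contrast to its span over the fat arrays. Serping1 was at 5748 to 6606 in WT and 4957 to 5205 in KO on ND, and 5592 to 6173 in WT and 4377 to 5188 in KO on HFD, and Clu at 10408 to 10921 in WT and 8166 to 9841 in KO on ND, and 9876 to 10747 in WT and 7761 to 9114 in KO on HFD. Vtn was at 9016 to 9587 in WT and 6585 to 8021 in KO on ND, and 7217 to 8127 in WT and 5777 to 6649.9 in KO on HFD. For Serping1, Clu and Vtn every KO value lay below every WT value on both diets, and none passed on ND (adjusted p = 0.0695, 0.152 and 0.0905) or on HFD with all arrays. Cd55 was at 25.9 to 31.2 in WT and 34.6 to 52.5 in KO on ND, and 35.2 to 46.2 in WT and 43.8 to 86.1 in KO on HFD. C8g was at 4643 to 5179.5 in WT and 4029 to 4893 in KO on ND, and 4771 to 5456 in WT and 4249 to 5017 in KO on HFD, and the receptor gene C3ar1 at 12.2 to 23.0 in WT and 15.3 to 27.4 in KO on ND, and 27.9 to 32.4 in WT and 31.1 to 64.9 in KO on HFD.

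Because each mouse gave both tissues, the KO effect on HFD could be set side by side in fat and liver for the 18 members that reached the filter in both. Of these, 8 had effects that differed between the tissues, beside 12.8% of the 10057 genes tested, with medians of 0.67 over the members and -0.01 over all genes. C4bp, among the 18 but not the 8, reached the fat filter only through ND fat. Its HFD fat signals lay below the filter except in KO mouse 427. C1qc had the smallest adjusted p: its KO effect was 1.48 in fat and 0.11 in liver, a difference of 1.38 ± 0.26 (adjusted p = 0.00220). C3ar1 had effects of 2.89 and 0.68, with a difference of 2.21 ± 0.53 (0.00931). C1ra had effects of 0.55 and -0.31 (difference 0.86 ± 0.20, 0.00791), and Cfi had a difference of 1.51 ± 0.37 (0.0104). These 4 passed under each of the 17 alternatives tried. Fitting the compared groups alone and leaving out mice 427 and 547 were not among the 17. Under both settings the fat calls of C1ra and Cfi on HFD were lost. No alternative used the probe set shared by C1ra and C1rb, whose genotype ranges on HFD overlapped in fat and in liver.

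The other 4 members of the tissue comparison were near the threshold. C2 had KO effects of -1.51 in fat and -0.29 in liver, a difference of -1.22 ± 0.37 (adjusted p = 0.0354). C1qa had a difference of 0.87 ± 0.28 (0.0469), C1qb of 1.04 ± 0.34 (0.0479) and Serping1 of 0.53 ± 0.16 (0.0342). Leaving out 1 array took the adjusted p of C2 as high as 0.116 without the fat array of mouse 429, and that of C1qb as high as 0.146 without the same array. It took C1qa to 0.150, also without that array, and Serping1 to 0.0883 without the liver array of mouse 427. With the mouse as a replicate block, C1qb (0.0732) and C2 (0.0839) no longer passed and Vtn did, with a difference of 0.78 ± 0.28 (0.0752 without the block and 0.0367 with it). Vtn also passed without the fat array of mouse 427 (0.0211), and Itgb2 (0.144) without that of mouse 547 (0.0169). Of the macrophage markers, 5 of 11 differed between tissues in the same way, and their part was not tested.

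**Figure D5:**
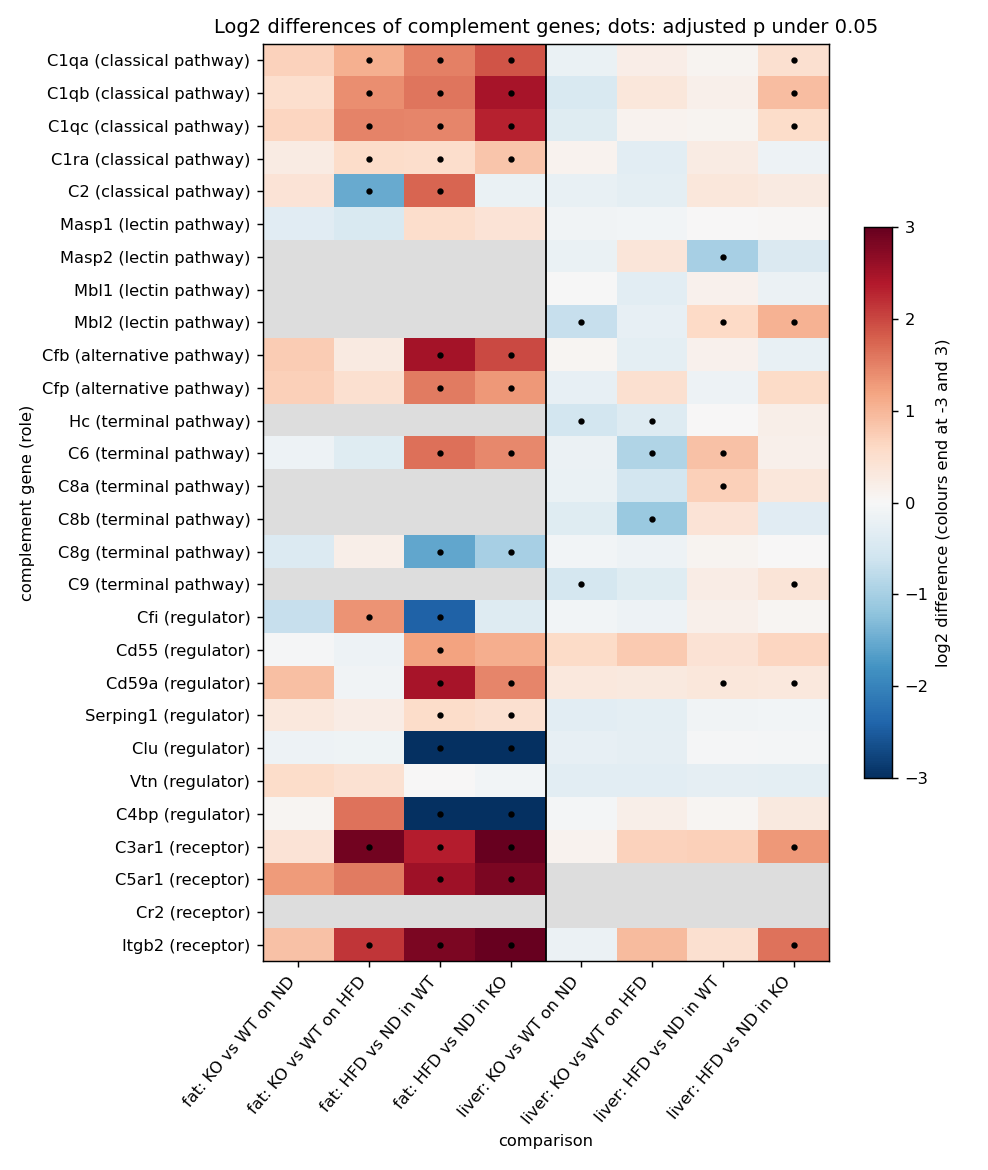
Log2 differences of the 28 complement genes (rows, by role) in 8 comparisons within fat and within liver, with blue for lower and red for higher, colours ending at ±3, dots for an adjusted p under 0.05 and grey for genes below the filter. In fat the diet columns are filled with dots in both genotypes and the ND genotype column has none, and in liver the dots are few.

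A further 32 complement genes were listed, and 23 of them had a probe set of their own. They included the partners of CD18, other lectins and surface regulators, and they did not include Cfd (adipsin) or C7, which were not analysed here. In fat of KO against WT mice on HFD, 4 of 14 tested passed, 2 higher and 2 lower, beside the same 22.5% of all genes, and their median log2 difference was -0.07. Itgax (CD11c) read 339, 567 and 1091 in KO and 63.2, 78.4 and 66.5 in WT, 8.61-fold higher without overlap (log2 difference 3.11 ± 0.41, adjusted p = 0.000928). Itgam (CD11b) read 63.1, 61.2 and 117 in KO and 9.16, 38.9 and 19.3 in WT, 4.03-fold higher (log2 difference 2.01 ± 0.49, adjusted p = 0.0137). Both partners of CD18 were thus higher in the same mice as Itgb2. Thbd (thrombomodulin, which promotes C3b inactivation) read 237, 309 and 287 in KO and 469, 458 and 468 in WT, lower in KO (log2 difference -0.75 ± 0.13, adjusted p = 0.00260), and Fcna (ficolin A) was lower with overlapping groups (log2 difference -1.11 ± 0.33, adjusted p = 0.0328). Thbd and Fcna also passed the interaction in fat, at -1.34 ± 0.18 (0.00343) and -1.74 ± 0.46 (0.0362), and Thbd the tissue comparison, at -1.10 ± 0.24 (0.00521), as 1 of 13. Thbd is also made by endothelial cells and Itgax and Itgam by macrophages, whose marker sums in the same arrays are given above, and their part was not tested. On ND, 0 of 14 passed with limma, beside 0.250% of all genes, and 5 had an unadjusted p under 0.05, beside 1617 of 11613 genes. On HFD against ND, 8 rose and 2 fell among 14 in WT fat, beside 55.3% of all genes called, and 6 rose and 1 fell in KO fat, beside 48.7%.

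In liver of KO against WT mice on HFD, 2 of 18 of these genes passed, both lower, beside 6.71% of all genes, with a median of -0.06. Susd4, a complement inhibitor, read 142, 156 and 139 in KO and 303, 233 and 322 in WT, 1.95-fold lower without overlap (log2 difference -0.96 ± 0.15, adjusted p = 0.00277). Fcna read 323, 300.4 and 306 in KO and 571, 429 and 515 in WT, 1.62-fold lower (log2 difference -0.70 ± 0.13, adjusted p = 0.00731). On ND only Cpn2, the carrier subunit of the carboxypeptidase that inactivates anaphylatoxins, passed, lower in KO (log2 difference -0.84 ± 0.13, adjusted p = 0.00438), and it is named here because it was the only one, after its value was seen. The diet changed 3 of 18 in WT liver, all higher, beside 12.5% of all genes, and 5 in KO liver, 2 higher and 3 lower, beside 16.5%. In the interaction 0 passed with limma, beside 0.989% of all genes, and 4 of 18 had an unadjusted p under 0.05, beside 1723 of 11125 genes. Of 19 tested between tissues in WT mice on HFD, 15 passed, 5 higher in fat and 10 higher in liver, beside 64.2% of all genes.

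C4 itself could be seen only through a probe set shared by C4a and C4b, which cannot be told apart there. Its signal in fat was 548 to 620 in WT and 506 to 1117 in KO mice on ND, and 1726 to 2402 in WT and 1755 to 2354 in KO mice on HFD. In liver it was 3993 to 5873 in WT and 3650.3 to 4611 in KO mice on ND, and 5599.5 to 5857 in WT and 4672 to 5420 in KO mice on HFD. The fat ranges of the genotypes overlapped on both diets, and the liver ranges overlapped on ND and not on HFD.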

How the data were processed

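Total RNA of epididymal adipose tissue and liver was measured on Affymetrix mouse arrays in 12 mice, 1 array per tissue and mouse. The deposited intensities are linear MAS5 signals, 1 value per probe set and array, which the authors made with MAS5 per the submitters' processing notes; the MAS5 version and settings are not given in the sources used here. MAS5 subtracts background and scales each array, so signals compare arrays of 1 probe set, not different probe sets, and low signals are imprecise.

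Of 45101 probe sets, 64 controls were left out. The platform annotation gave 1 gene for 34945, several for 932 and none for 9160, and only probe sets with 1 gene were used. In each tissue, signals were floored at their 10th percentile (1.08 in fat, 1.1 in liver) and log2-transformed, and each gene was represented by its probe set with the highest mean, so that Masp1, Cd55 and Cd59a had different probe sets in the 2 tissues; comparisons between tissues used 1 probe set for both. Genes below the median probe set (19.3 in fat, 12.95 in liver) were not tested. All 12 arrays of a tissue were fitted together with limma 3.58.1 (lmFit, and eBayes with a trend) in R 4.3.3, and all 24 for comparisons between tissues. P-values are from limma, 2-sided and adjusted by Benjamini-Hochberg over all genes tested, with a threshold of 0.05, and the scripts were tested on simulated data. "At least" folds set the brighter group against the filter. The number of arrays limits the precision.

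Each mouse gave both tissues, per the labels. How far its fat and liver arrays lay from their own groups' means correlated across genes at 0.0351 to 0.129, above 0.1 in 4 of 12 mice, and the mouse as a replicate block was run as an alternative. The members and lists were chosen with earlier results of these data known. Every member with its own probe set was named. Values of each array were given for at most 4 members per role and comparison, smallest adjusted p first, with further values for context. Alternatives were quantile normalization, no floor, no filter, averaging all probe sets mapped to a gene, fitting the compared groups alone, each array left out, and pairs of mice left out (427 and 547, or 686 and 690). Leaving out 686 and 690 did not remove the epididymis and testis transcripts from ND fat. Their summed signals were 48370 in mouse 686, 49940 in 687 and 64160 in 690.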

Additional observations from a re-analysis of the deposited data

Results flagged for a closer look

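The diet effect of 3 of 20 complement genes tested differed between genotypes in fat, beside 11.0% of all genes tested, by a test of the difference itself in limma. The diet effect in KO minus that in WT was -1.94 for C2 (adjusted p = 0.0160), 2.47 for C3ar1 (0.0191) and 2.03 for Cfi (0.0250). C2 is the protease partner of C4, C3ar1 the receptor of C3a and Cfi the protease that inactivates C3b. In WT fat, Cfi fell on HFD along with the epididymal transcripts of ND fat. In KO fat these transcripts fell too, to summed signals of 3693, 98.2 and 30.7 in mice 427, 428 and 429. Cfi read 118, 78.9 and 47.6 in those mice, against 88.5 to 117 in KO on ND. The part of the epididymal transcripts was not tested.

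The KO effect on HFD of 8 genes differed between fat and liver, by the same kind of test, beside 12.8% of all genes tested. The effect in fat minus that in liver was 1.38 for C1qc (adjusted p = 0.00220), 1.04 for C1qb (0.0479) and 0.87 for C1qa (0.0469), the chains of C1q. It was 0.86 for C1ra (0.00791) and -1.22 for C2 (0.0354), proteases of the classical pathway. It was 2.21 for C3ar1 (0.00931), 1.51 for Cfi (0.0104) and 0.53 for Serping1 (0.0342), which encodes the C1 inhibitor. C1qb (adjusted p = 0.0732) and C2 (0.0839) no longer passed with the mouse as a replicate block. Of 17 alternatives, C1qa was lost under 11, C1qb under 10, and C2 and Serping1 under 9 each, all 4 without the filter among them, while C1qc, C1ra, C3ar1 and Cfi passed under each. The 17 did not include the compared groups alone or leaving out mice 427 and 547. Under those settings the fat calls of C1ra and Cfi in KO against WT on HFD were lost.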

How the results depend on the processing

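Of 96 calls (a member in a comparison), 71 held under every alternative run, and C5ar1 could not be tested with the mean of its probe sets. The other 25 were lost under at least 1 alternative, 23 of them without 1 array, and none was reversed. With all probe sets of a gene averaged, 5 members rather than 3 were called in KO against WT liver on HFD and 1 rather than 0 in the liver interaction. Without the filter, 5 rather than 8 were called for the diet in KO liver and 4 rather than 8 between the tissues. Leaving out 1 array at a time, the called members numbered 6 to 8 in KO against WT fat on HFD, 0 on ND, 16 to 18 and 13 to 16 for the diet in WT and KO fat, and 2 to 5 in the fat interaction. In liver they numbered 2 to 5 on HFD, 0 to 2 on ND, 2 to 5 and 4 to 7 for the diet in WT and KO, and 0 to 1 in the interaction. They numbered 4 to 9 for the KO effect between tissues and 25 throughout for fat against liver. With the mouse as a replicate block, 7 members rather than 8 were called for the KO effect between tissues and 25 as before for fat against liver, and no other comparison can hold the block. Among all genes, the 29 calls in fat on ND became 83 with quantile normalization, 18 with the mean of probe sets and 2 without mice 686 and 690. The 1273 of the fat interaction became 848 with the mean of probe sets. In liver, the 524 calls on ND became 309 with the mean of probe sets and 330 with the compared groups alone, and the 1392 for the diet in WT became 846 and 629. The 110 of the liver interaction became 57 without the filter and 52 with the mean of probe sets. Without 1 array, calls among all genes numbered 7 to 392 in fat on ND, 1587 to 2686 in fat on HFD, 278 to 683 in liver on HFD and 770 to 1415 for the KO effect between tissues. The cause of these changes was not tested. With 3 mice a group, calls near the threshold depended on single arrays, and signals near the floor gave only bounds.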
